A study of Homo sapiens with 12 samples.

Results

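Collagens are the main structural proteins of the extracellular matrix, and the genes of their chains were compared here in G401 cells, an established line from a human malignant rhabdoid tumour. A gene was included when its Ensembl identifier in the 3 deposited RSEM tables mapped to a symbol of the form COL, number, A, number. This rule found 44 genes among the 57820 gene identifiers of the series: 11 fibrillar chains, 6 basement membrane chains, 10 chains of the FACIT class (fibril-associated collagens with interrupted triple helices) and 17 of other classes. All cells carried the genotype SMARCB1(-/-), so the control cells also lack this core subunit of the SWI/SNF chromatin remodelling complexes. Doxycycline was used to induce GFP in the control cells and SMARCB1 in the others. Each state received the vehicle DMSO or dBRD9-A, a degrader of BRD9, for 24 h, which gave 4 groups of 3 libraries. The labels give no dose and do not say whether the 3 libraries of a group came from separate cultures, so the p-values measure the spread between these libraries, which may be technical. The groups are called GFP cells and SMARCB1 cells, in DMSO or in dBRD9-A.

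Collagen chains wind into triple helices with particular partners, so the amount of each chain relative to its partners can affect which molecules form. Fibrillar collagens build the banded fibrils of connective tissue, type IV chains build the sheet of the basement membrane, and FACIT molecules sit on the surface of fibrils. BRD9 belongs to the non-canonical form of the SWI/SNF complex, which holds no SMARCB1, whereas SMARCB1 belongs to the canonical forms. The series asks how the canonical and non-canonical complexes act together in cancer cells that lack SMARCB1.

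Libraries held between 34.97 and 58.54 megacounts over genes. The targeted gene matched the labels: SMARCB1 had 0 to 2 counts in each library of GFP cells and 53033 to 110893 in each library of SMARCB1 cells. Within SMARCB1 cells the SMARCB1 level itself was lower in dBRD9-A, at 1310 CPM ± 27.0 against 1880 ± 59.4 in DMSO (SD, n = 3; log2 fold change -0.52, SE 0.03, adjusted p = 4.95e-08, edgeR; CPM is the count scaled to the library's total), and the part of this in the effects of dBRD9-A there was not tested. BRD9 RNA measured 38.3 CPM ± 1.20 (SD, n = 3) in GFP cells in DMSO and 41.1 ± 0.849 in dBRD9-A, which does not measure the protein that the compound degrades. The leukocyte markers PTPRC and CD3E had no count in any library. The fibroblast and mesenchymal markers summed to 1470 to 1510 CPM in GFP cells and 2330 to 2450 CPM in SMARCB1 cells, both in DMSO, and most of this was VIM. Within that list PDGFRA was 97.5 CPM ± 0.798 in GFP cells and 9.98 ± 0.492 in SMARCB1 cells (SD, n = 3). THY1 went the other way, from 20 to 220 counts over 3 libraries. The endothelial markers VWF and CDH5 went from 7 to 103 and from 0 to 18 counts. They summed to 0.0173 to 0.121 CPM in GFP cells and 0.681 to 1.07 CPM in SMARCB1 cells, both in DMSO. The epithelial markers, mainly KRT8 and KRT18, summed to 4700 to 5080 CPM and 3540 to 3640 CPM in the same groups. The scarce members of that list moved in opposite directions: over 3 libraries CDH1 went from 10 to 104 counts and KRT19 from 3 to 42, while EPCAM went from 106 to 3. Their part in the collagen differences was not tested, and in bulk RNA fewer cells of a kind and less RNA per cell cannot be told apart.

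G401 cells transcribed a small set of collagen genes at high levels. Of the 44 genes, 22 passed the filter on low counts, 16 of them averaging 50 counts or more per library, and the other 22 are described after the comparisons. The 8 genes given in full (called with at least 2-fold in a comparison and a mean of at least 50 counts) were COL1A1 (ENSG00000108821.9), COL4A5 (ENSG00000188153.8), COL4A6 (ENSG00000197565.11), COL5A2 (ENSG00000204262.7), COL6A2 (ENSG00000142173.10), COL9A1 (ENSG00000112280.11), COL9A3 (ENSG00000092758.11) and COL16A1 (ENSG00000084636.13). Summed over all 44 genes, collagen RNA was 4232 CPM ± 86.6 in GFP cells in DMSO, 4668 ± 97.8 in SMARCB1 cells in DMSO, 3954 ± 106 in GFP cells in dBRD9-A and 4080 ± 81.8 in SMARCB1 cells in dBRD9-A (SD, n = 3). Fibrillar chains made up most of it, at 3551 CPM ± 67.9 in GFP cells in DMSO. Per kilobase of exon, the scale that allows genes to be compared with each other, the highest levels in GFP cells in DMSO were those of COL11A1 (143 CPM per kb ± 8.46) and COL3A1 (131 ± 2.81), followed by COL1A2 (75.5 ± 1.93). COL11A1 ranked 269 of 15257 genes on this scale. COL18A1 at 51.5 ± 2.08, COL26A1 at 43.7 ± 0.402, COL5A2 at 34.4 ± 0.343 and COL1A1 at 26.2 ± 0.911 CPM per kb came next. In SMARCB1 cells in DMSO the order at the top was COL3A1 (177 CPM per kb ± 3.89), COL11A1 (123 ± 7.67) and COL5A2 (107 ± 0.512). In GFP cells in DMSO the spreads of COL11A1 and COL3A1 were close to their difference, so the order of these genes there is uncertain.

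**Figure D1:**
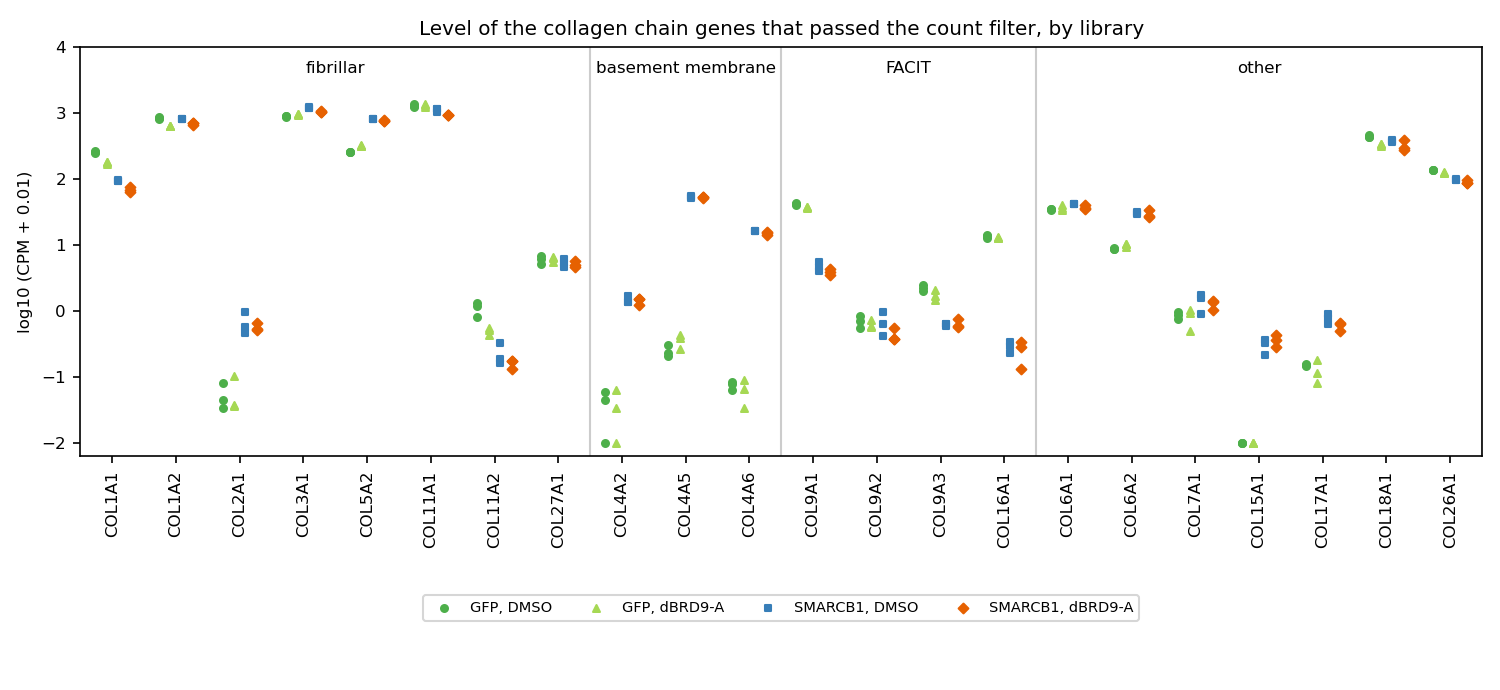
Level of each of the 22 tested collagen genes in each of the 12 libraries, as log10 of CPM plus 0.01, by class; each point is 1 library and symbols mark the 4 groups. COL4A5 and COL4A6 lie below 1 CPM in GFP cells and above 14 CPM in SMARCB1 cells, while COL16A1 and COL9A1 lie lower in SMARCB1 cells.

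Induced SMARCB1 changed the makeup of collagen RNA. Type IV chains rose from near 0, COL5A2 and COL6A2 rose, and COL16A1, COL9A1, COL9A3 and COL1A1 fell. In DMSO, 19 of the 22 tested collagen genes differed between SMARCB1 and GFP cells (edgeR quasi-likelihood test, Benjamini-Hochberg adjusted p under 0.05), 11 higher and 8 lower. This has to be read against the whole transcriptome, in which 65.0% of the 15750 tested genes were called in this comparison, 33.5% higher and 31.6% lower. Of the collagen genes, 13 were called with a change of at least 2-fold, where 14.6% of all tested genes were. Of these, COL2A1, COL4A2, COL4A6, COL15A1 and COL17A1 had 7, 4, 10, 0 and 22 counts over the 3 GFP libraries in DMSO and passed the filter through the SMARCB1 cells, so they had to differ; filtered on GFP libraries alone, 17 collagen genes were tested. COL11A2, with 28 counts over the 3 SMARCB1 libraries in DMSO, passed the filter through the GFP cells, so it too had to differ. Filtered on SMARCB1 libraries alone, 21 collagen genes were tested. Counts and medians over the tested members are therefore descriptions. The median absolute log2 fold change was 1.72 over the tested collagen genes and 0.28 over all tested genes. In dBRD9-A, a comparison with no library in common with the first, 17 of 22 were called, 10 higher and 7 lower, where 63.3% of all genes were called, 33.0% higher and 30.4% lower. With libraries scaled to the spiked-in RNA standards that split was 8 higher and 13 lower. Again 13 were called with at least 2-fold, against 14.6% of all genes. All fold changes use TMM scaling, which sets the bulk of genes near 0. Spike-in scaling shifted the median gene by 0.17 in DMSO and by -0.32 in dBRD9-A on the log2 scale.

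**Figure D2:**
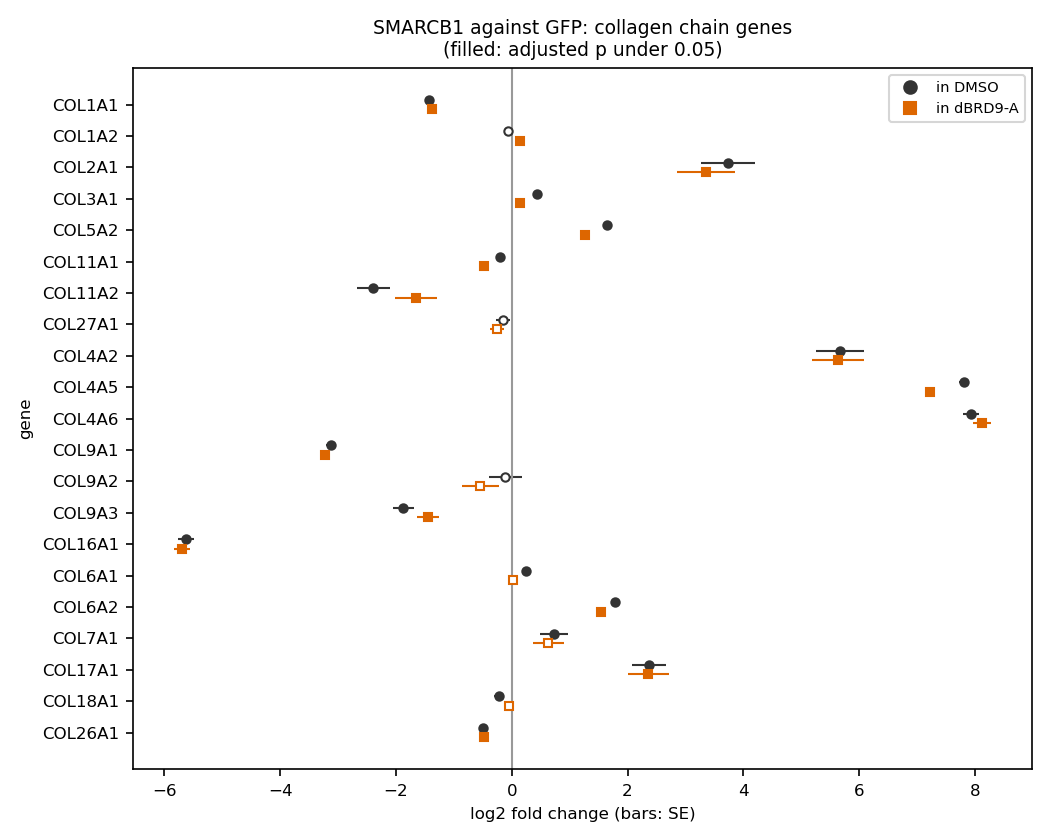
log2 fold change of SMARCB1 against GFP cells for 21 tested collagen genes, in DMSO and in dBRD9-A; bars are SE, filled symbols have an adjusted p under 0.05, and COL15A1 is not drawn because every library of GFP cells is at 0. The largest rises are those of COL4A5 and COL4A6, at 7.81 and 7.93 in DMSO, and the largest fall is that of COL16A1, at -5.62; the small rises of COL1A2 and COL3A1 in dBRD9-A turn to -0.18 and -0.19 under spike-in scaling.

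The 3 tested basement membrane chains rose with SMARCB1; COL4A2 and COL4A6 were tested only because they passed the count filter in SMARCB1 cells, so their shared direction was set by that filter. The summed level of the 6 type IV genes in DMSO was 0.4368 CPM ± 0.0642 in GFP cells and 72.21 ± 2.02 in SMARCB1 cells, and in dBRD9-A it was 0.4925 ± 0.159 and 69.61 ± 1.22 (SD, n = 3). COL4A5 and COL4A6 encode the α5 and α6 chains, which assemble together in the basement membranes of smooth muscle and some epithelia. COL4A5 was 0.195, 0.218 and 0.294 CPM in the 3 libraries of GFP cells in DMSO and 52.3, 53.5 and 55.9 in SMARCB1 cells in DMSO. In dBRD9-A it was 0.374, 0.421 and 0.254 in GFP cells and 52.9, 53.9 and 51.7 in SMARCB1 cells. The SMARCB1 libraries thus formed a narrow band far above every GFP library, with either treatment. On the log2 scale the change was 7.81 (SE 0.09, adjusted p = 4.70e-21, edgeR) in DMSO and 7.22 (SE 0.09, adjusted p = 1.74e-20) in dBRD9-A. The GFP level rested on 37 counts over 3 libraries in DMSO and 41 in dBRD9-A, so the ratios of summed levels, 227 and 150, carried 95% counting intervals of 165 to 323 and 110 to 209. The change with SMARCB1 did not differ detectably between treatments (interaction -0.59, SE 0.26, adjusted p = 0.354), except under spike-in scaling (-1.09, adjusted p = 0.00321).

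COL4A6 moved with COL4A5, although its direction was set by the count filter. It was 0.0533, 0.0727 and 0.0691 CPM in GFP cells in DMSO, 16.1, 16.5 and 16.5 in SMARCB1 cells in DMSO, 0.0234, 0.0790 and 0.0565 in GFP cells in dBRD9-A, and 14.2, 15.3 and 15.8 in SMARCB1 cells in dBRD9-A. No GFP library came near a SMARCB1 library. The log2 fold change was 7.93 (SE 0.14, adjusted p = 2.53e-18, edgeR) in DMSO and 8.12 (SE 0.16, adjusted p = 1.23e-17) in dBRD9-A. With 10 counts in all GFP libraries in DMSO, the ratio of summed levels was 255 with a 95% counting interval of 138 to 532. Per kilobase of exon, the COL4A5 level was 2.57 times that of COL4A6 ± 0.0577 in SMARCB1 cells in DMSO and 2.75 ± 0.182 in dBRD9-A (SD, n = 3), so this ratio was close in both treatments.

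The chains of the widespread type IV molecule, α1 and α2, stayed far lower. COL4A2 was 0.0355, 0.0485 and 0 CPM in GFP cells in DMSO and 1.70, 1.34 and 1.34 in SMARCB1 cells in DMSO. In dBRD9-A it was 0.0234, 0.0527 and 0 in GFP cells and 1.49, 1.49 and 1.23 in SMARCB1 cells. The fitted log2 fold change of COL4A2 in DMSO was 5.67 (SE 0.41, adjusted p = 1.45e-09, edgeR). Its direction and the lack of overlap between the groups were set by the count filter, as said above. Per kilobase of exon its level in SMARCB1 cells in DMSO was 0.0757 CPM per kb ± 0.0109, against 4.54 ± 0.154 for COL4A5 and 1.76 ± 0.0257 for COL4A6 (SD, n = 3). On 4 counts in GFP cells in DMSO, the ratio of summed levels was 56.0 with a counting interval of 21.5 to 208. COL4A1, its partner in the molecule, did not pass the filter and had 0, 3 and 0 counts in GFP cells and 7, 9 and 18 in SMARCB1 cells in DMSO, a ratio of 13.0 with a counting interval of 4.07 to 65.9. COL4A1 and COL4A2 overlap on opposite strands in the annotation, and whether the counting used strand is not given in the sources used here, so reads of these genes may have been shared. The same holds for COL1A2, COL3A1, COL4A5, COL4A6, COL5A2, COL9A1, COL9A3, COL15A1, COL16A1, COL18A1 and COL26A1, each of which overlaps an annotated gene on the other strand. COL4A3 and COL4A4, whose products join α5 in the kidney glomerulus, reached at most 4 and 18 counts in any library.

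The 6 type IV genes lie in the genome as 3 pairs that start back to back. In the RefSeq promoter table (build GRCh38.p14) the first bases of COL4A6 and COL4A5 were 379 bases apart on chromosome X, those of COL4A1 and COL4A2 126 bases apart on chromosome 13, and those of COL4A4 and COL4A3 418 bases apart on chromosome 2. The stretches before the first exons of COL4A5 and COL4A6, the pair that rose most, are printed 5′ to 3′. So are the bases between COL4A1 and COL4A2, which had 34 and 196 counts over the SMARCB1 libraries in DMSO. The pair COL4A4 and COL4A3, with 34 and 6 counts there, is not printed. Capitals mark the GC box GGGCGG, the CCAAT box, the TATA box TATAAA and the AP-1 motif TGACTCA, each on either strand. COL4A5 is read on the + strand at chrX:108439588-108439837, COL4A6 on the - strand at chrX:108439459-108439708, upstream of the first exon that faces COL4A5, and COL4A1-COL4A2 on the + strand at chr13:110307158-110307283.
COL4A5: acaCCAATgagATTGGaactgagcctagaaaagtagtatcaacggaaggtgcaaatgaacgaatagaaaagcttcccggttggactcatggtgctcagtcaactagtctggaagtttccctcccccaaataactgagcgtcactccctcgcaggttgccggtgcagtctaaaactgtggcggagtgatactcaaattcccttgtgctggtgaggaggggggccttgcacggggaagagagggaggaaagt
COL4A6: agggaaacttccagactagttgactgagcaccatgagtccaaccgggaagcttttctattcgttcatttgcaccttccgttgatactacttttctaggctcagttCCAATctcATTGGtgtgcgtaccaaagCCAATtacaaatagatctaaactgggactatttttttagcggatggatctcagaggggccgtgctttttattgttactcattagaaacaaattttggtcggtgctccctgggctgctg
COL4A1-COL4A2: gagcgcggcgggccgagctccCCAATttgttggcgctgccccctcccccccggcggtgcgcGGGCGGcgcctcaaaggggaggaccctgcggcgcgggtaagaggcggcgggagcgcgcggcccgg
The stretches of COL4A5 and COL4A6 overlap, and the CCAAT and inverted CCAAT near the start of the COL4A5 line are the same bases as those in the middle of the COL4A6 line. Neither held a GC box. They held 8 and 7 CG dinucleotides at a GC content of 51.2% and 44%, whereas the 126 bases between COL4A1 and COL4A2 held 20 at 80.2%. A match or its absence describes these letters only.

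Fibrillar chains moved in both directions. Of the 8 tested in DMSO, 3 rose, 3 fell and 2 did not pass the test, which is 75.0% called where 65.0% of all genes were. COL2A1 among the rises and COL11A2 among the falls had directions set by the count filter. The medians of the 8 log2 fold changes were -0.10 signed and 0.93 absolute. The summed level of the 11 fibrillar genes lay between 3496 and 3627 CPM in GFP cells and between 3952 and 4114 CPM in SMARCB1 cells in DMSO. In dBRD9-A the ranges were 3299 to 3472 and 3479 to 3573 CPM, so the groups did not overlap with either treatment but nearly touched in dBRD9-A.

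COL5A2 encodes the α2 chain of type V collagen, which helps to set the diameter of type I fibrils. It was 259, 255 and 254 CPM in GFP cells in DMSO, 798, 800 and 805 in SMARCB1 cells in DMSO, 328, 317 and 312 in GFP cells in dBRD9-A, and 763, 775 and 750 in SMARCB1 cells in dBRD9-A. Every SMARCB1 library was above every GFP library, and the libraries within a group lay close together. The log2 fold change was 1.64 (SE 0.03, adjusted p = 5.70e-19, edgeR) in DMSO and 1.26 (SE 0.03, adjusted p = 2.56e-17) in dBRD9-A. COL5A1, which encodes the chain that most type V molecules need, had only 1 to 7 counts in any library. COL11A1, whose product is closely related to that chain and can take its place beside the COL5A2 product, was at 1300 CPM ± 76.9 in GFP cells and 1120 ± 69.7 in SMARCB1 cells in DMSO (SD, n = 3). This small fall (log2 fold change -0.21, SE 0.05, adjusted p = 6.61e-04) was -0.05 and not called under spike-in scaling, while in dBRD9-A the fall was larger (-0.48, SE 0.05, adjusted p = 8.77e-08).

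COL1A1 and COL1A2 encode the chains of type I collagen, the main collagen of bone, skin and tendon, and they did not move together. COL1A1 was 250, 254 and 267 CPM in GFP cells in DMSO, 94.4, 93.5 and 97.8 in SMARCB1 cells in DMSO, 181, 171 and 182 in GFP cells in dBRD9-A, and 67.6, 74.3 and 63.7 in SMARCB1 cells in dBRD9-A. The 4 groups did not overlap, and the SMARCB1 cells were lower with either treatment. Fitted changes were -1.43 on the log2 scale (SE 0.04, adjusted p = 8.46e-15, edgeR) in DMSO and -1.38 (SE 0.05, adjusted p = 2.40e-14) in dBRD9-A. COL1A2 was 842, 821 and 864 CPM in GFP cells and 817, 805 and 810 in SMARCB1 cells in DMSO, a difference that missed the threshold (log2 fold change -0.06, 95% interval -0.11 to 0.00, adjusted p = 0.11). In dBRD9-A it was 626, 632 and 632 in GFP cells and 717, 710 and 664 in SMARCB1 cells, a rise of 0.15 (SE 0.03, adjusted p = 3.23e-04) that became -0.18 under spike-in scaling. COL3A1, the single chain of type III collagen that lies beside type I in skin and vessels, rose by 0.44 in DMSO (SE 0.03, adjusted p = 1.58e-10) and by 0.14 in dBRD9-A (SE 0.03, adjusted p = 2.63e-04), the latter turning to -0.19 under spike-in scaling.

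The remaining fibrillar genes were low. COL2A1, the chain of cartilage type II collagen, had 7 counts in GFP cells and 84 in SMARCB1 cells in DMSO, a ratio of 13.7 with a 95% counting interval of 6.37 to 35.2. It passed the count filter only in SMARCB1 cells, which set the direction of its call (adjusted p = 1.72e-06, edgeR). COL11A2, a chain that joins type XI molecules in cartilage, was 1.30, 0.800 and 1.16 CPM in GFP cells and 0.314, 0.176 and 0.155 in SMARCB1 cells in DMSO. Its log2 change was -2.39 (SE 0.29, adjusted p = 1.14e-06, edgeR), in a direction set by the count filter, which it passed only in GFP cells. Both kept these directions in dBRD9-A, at 3.36 for COL2A1 and -1.65 for COL11A2. COL27A1, a chain of developing cartilage, was between 4.57 and 6.76 CPM in every library and was not called with either treatment (adjusted p = 0.294 and 0.0795). In dBRD9-A it was called at adjusted p = 0.0433 without the second library of GFP cells, 0.0249 without the second of SMARCB1 cells, 0.0368 with no count filter and 1.08e-04 under spike-in scaling.

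All FACIT genes called in this comparison fell. The summed level of the 10 FACIT genes was 58.42 CPM ± 1.72 in GFP cells and 6.554 ± 0.546 in SMARCB1 cells in DMSO, and 52.10 ± 0.656 and 5.377 ± 0.477 in dBRD9-A (SD, n = 3). Of the 4 tested, 3 were lower in SMARCB1 cells with either treatment and COL9A2 was not called. Among all tested genes 31.6% were lower in DMSO and 30.4% in dBRD9-A, and a count over 4 genes is a description.

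COL16A1, a fibril-associated chain of connective tissue, showed the largest fall of any collagen gene. It was 12.7, 14.0 and 13.8 CPM in GFP cells in DMSO, 0.288, 0.328 and 0.224 in SMARCB1 cells in DMSO, 12.7, 12.9 and 13.0 in GFP cells in dBRD9-A, and 0.124, 0.277 and 0.326 in SMARCB1 cells in dBRD9-A. GFP libraries lay in a narrow band far above every SMARCB1 library. Fitted log2 fold changes were -5.62 (SE 0.14, adjusted p = 3.07e-16, edgeR) in DMSO and -5.69 (SE 0.14, adjusted p = 4.52e-16) in dBRD9-A. The SMARCB1 level in DMSO rested on 37 counts, and GFP cells were higher by a ratio of 49.5 with a 95% counting interval of 35.8 to 70.5.

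COL9A1, COL9A2 and COL9A3 encode the 3 chains of type IX collagen, which coats the type II fibrils of cartilage. COL9A1 was 41.2, 43.8 and 40.7 CPM in GFP cells in DMSO, 4.58, 4.03 and 5.45 in SMARCB1 cells in DMSO, 37.0, 37.1 and 36.1 in GFP cells in dBRD9-A, and 3.53, 4.30 and 3.84 in SMARCB1 cells in dBRD9-A. The groups of GFP and SMARCB1 cells were far apart. The fitted log2 fold change was -3.13 (SE 0.07, adjusted p = 1.63e-16, edgeR) in DMSO and -3.23 (SE 0.08, adjusted p = 2.54e-16) in dBRD9-A. COL9A3 was 2.45, 2.01 and 2.25 CPM in GFP cells in DMSO, 0.628, 0.630 and 0.585 in SMARCB1 cells in DMSO, 2.06, 1.66 and 1.44 in GFP cells in dBRD9-A, and 0.572, 0.738 and 0.558 in SMARCB1 cells in dBRD9-A. Here too no library of SMARCB1 cells reached the GFP range. The log2 fold change of COL9A3 came to -1.87 (SE 0.18, adjusted p = 5.15e-08) in DMSO and -1.45 (SE 0.19, adjusted p = 2.54e-06) in dBRD9-A. COL9A2 stayed between 0.369 and 0.942 CPM in all 12 libraries, with a log2 fold change of -0.11 in DMSO (95% interval -0.67 to 0.44) and -0.54 in dBRD9-A (-1.17 to 0.08). In dBRD9-A it was called under spike-in scaling (-0.87, adjusted p = 0.0154).

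The stretches before the first exons of COL16A1 and COL9A1, which fell most, are printed for comparison with those of the type IV pairs. Both are read on the - strand of GRCh38.p14 from RefSeq, COL16A1 at chr1:31704018-31704267 and COL9A1 at chr6:70303085-70303334, the upstream one of its alternative starts, with the same motifs in capitals.
COL16A1: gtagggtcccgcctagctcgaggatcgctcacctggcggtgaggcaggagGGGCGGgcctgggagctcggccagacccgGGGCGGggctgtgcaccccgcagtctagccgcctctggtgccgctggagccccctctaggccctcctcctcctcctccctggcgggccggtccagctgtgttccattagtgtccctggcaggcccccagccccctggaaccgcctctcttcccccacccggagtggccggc
COL9A1: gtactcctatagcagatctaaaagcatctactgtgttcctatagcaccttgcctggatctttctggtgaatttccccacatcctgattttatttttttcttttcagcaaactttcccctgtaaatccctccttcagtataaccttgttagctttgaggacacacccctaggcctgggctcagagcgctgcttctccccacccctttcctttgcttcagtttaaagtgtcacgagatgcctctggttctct
COL16A1 held 2 GC boxes and 16 CG dinucleotides at a GC content of 73.2%, and COL9A1 held none of the 4 motifs and 2 CG dinucleotides at 45.6%. The promoter table had windows (250 bases before to 50 after a start) for 32 of the 44 genes, 44 windows in all. It had no entry for COL1A1, COL1A2, COL2A1, COL3A1, COL5A2, COL6A1, COL6A5, COL8A1, COL9A3, COL14A1, COL20A1 and COL22A1. The GC box was in 54.5% of the collagen windows and 45% of all 35116 windows, the CCAAT box in 31.8% and 34.6%, the TATA box in 18.2% and 11.5%, and the AP-1 motif in 0 of 44 and 4.95%, all searched on both strands. The windows of a back-to-back pair share bases, so they are not independent.

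Among the other classes, all 7 tested genes were called in DMSO, 5 higher and 2 lower, where 65.0% of all genes were called. In dBRD9-A 4 were called, 3 higher and 1 lower, which is 57.1% of those tested against 63.3% of all genes. COL6A1 and COL6A2 encode chains of type VI collagen, which forms beaded filaments around cells. COL6A2 was 8.61, 8.95 and 8.80 CPM in GFP cells in DMSO, 31.3, 29.0 and 30.8 in SMARCB1 cells in DMSO, 10.5, 9.46 and 10.3 in GFP cells in dBRD9-A, and 27.3, 34.4 and 26.6 in SMARCB1 cells in dBRD9-A. Every SMARCB1 library was above every GFP library, and the second replicate of SMARCB1 cells in dBRD9-A was above the rest of its group. The log2 fold change was 1.79 (SE 0.08, adjusted p = 2.35e-12, edgeR) in DMSO and 1.55 (SE 0.08, adjusted p = 2.60e-11) in dBRD9-A. COL6A1 changed far less, from 35.4, 34.1 and 35.6 CPM in GFP cells to 41.2, 41.1 and 41.6 in SMARCB1 cells in DMSO (log2 fold change 0.24, SE 0.06, adjusted p = 0.00111), and was not called in dBRD9-A (0.03, 95% interval -0.08 to 0.14), where spike-in scaling turned it to a called fall (-0.30, adjusted p = 8.36e-04). COL6A3, the chain that completes the classical type VI molecule, had at most 13 counts in any library.

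COL18A1 and COL26A1 were the most abundant genes outside the fibrillar class. COL18A1, the source of the fragment endostatin, was 427, 459 and 430 CPM in GFP cells and 364, 375 and 389 in SMARCB1 cells in DMSO. The groups did not overlap, but the call (log2 fold change -0.22, SE 0.08, adjusted p = 0.0228, edgeR) was lost under spike-in scaling (-0.05), with DESeq2 (adjusted p = 0.0791) and without GFP replicate 2 or SMARCB1 replicates 1 or 2 (adjusted p from 0.0564 to 0.0855), and in dBRD9-A it was not called (-0.05, adjusted p = 0.599), but was without the second library of SMARCB1 cells (-0.22, adjusted p = 2.07e-04) and under spike-in scaling (-0.39, adjusted p = 6.48e-05). COL26A1 was 137, 139 and 138 CPM in GFP cells and 96.8, 95.0 and 101 in SMARCB1 cells in DMSO, lower by a log2 change of -0.50 (SE 0.04, adjusted p = 3.28e-09), and at -0.48 in dBRD9-A. The 3 remaining genes were below 2 CPM. COL17A1, a transmembrane chain of hemidesmosomes, rose from 0.142 CPM ± 0.00358 to 0.754 ± 0.132 in DMSO (log2 fold change 2.37, SE 0.30, adjusted p = 1.80e-06). Like COL15A1, it passed the count filter only in SMARCB1 cells, which set the direction of both. COL15A1, a relative of COL18A1, had no count in GFP cells and 38 counts in SMARCB1 cells in DMSO. Against a floor of 3 counts over the group this is 14.5-fold higher, and the lower 95% counting bound of the ratio was 11.2. COL7A1, the chain of anchoring fibrils, was called at 0.73 (SE 0.25, adjusted p = 0.0186) in DMSO and lost the call without any 1 of 3 libraries (GFP replicate 1, SMARCB1 replicates 2 or 3; adjusted p from 0.0601 to 0.133). In dBRD9-A it missed the threshold (0.63, adjusted p = 0.0524) and was called under 5 alternatives: no count filter, a minimum mean of 50 counts, or without replicate 1 of any group but GFP cells in DMSO (adjusted p from 0.0117 to 0.049).

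The balance between some chains of the same or neighbouring molecules differed between the cell states by more than the spread between libraries. Per kilobase of exon, the COL1A1 level divided by the COL1A2 level was 0.346 ± 0.00781 in GFP cells in DMSO and 0.133 ± 0.00327 in SMARCB1 cells in DMSO, and 0.321 ± 0.0125 and 0.112 ± 0.00632 in dBRD9-A (SD, n = 3). A type I heterotrimer holds more α1 than α2 chains, and these are RNA ratios on an exon length taken from another annotation than the counting used, so their absolute size is approximate. The COL6A1 to COL6A2 ratio was 4.02 ± 0.157 and 1.37 ± 0.0512 in DMSO and 3.65 ± 0.233 and 1.28 ± 0.0956 in dBRD9-A. The COL3A1 to COL5A2 ratio was 3.81 ± 0.0768 and 1.65 ± 0.0293 in DMSO and 3.30 ± 0.0213 and 1.52 ± 0.0488 in dBRD9-A. The COL11A1 to COL1A1 ratio went the other way, from 5.46 ± 0.452 to 12.7 ± 0.774 in DMSO and from 7.89 ± 0.163 to 14.8 ± 1.33 in dBRD9-A. For each of these ratios the 3 libraries of SMARCB1 cells did not overlap with those of GFP cells. The pairs join genes whose changes with SMARCB1 differed above, so this separation restates those changes. Its share over all gene pairs was not computed. With 3 against 3 libraries an exact two-sided permutation test cannot go below p = 0.1, and none was run. The COL4A5 to COL4A6 ratio overlapped in DMSO, at 2.87, 2.35 and 3.32 in GFP cells and 2.54, 2.54 and 2.64 in SMARCB1 cells. In dBRD9-A it was 12.5, 4.17 and 3.52 in GFP cells and 2.92, 2.76 and 2.56 in SMARCB1 cells. The GFP values there rested on 6 COL4A6 counts.

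**Figure D3:**
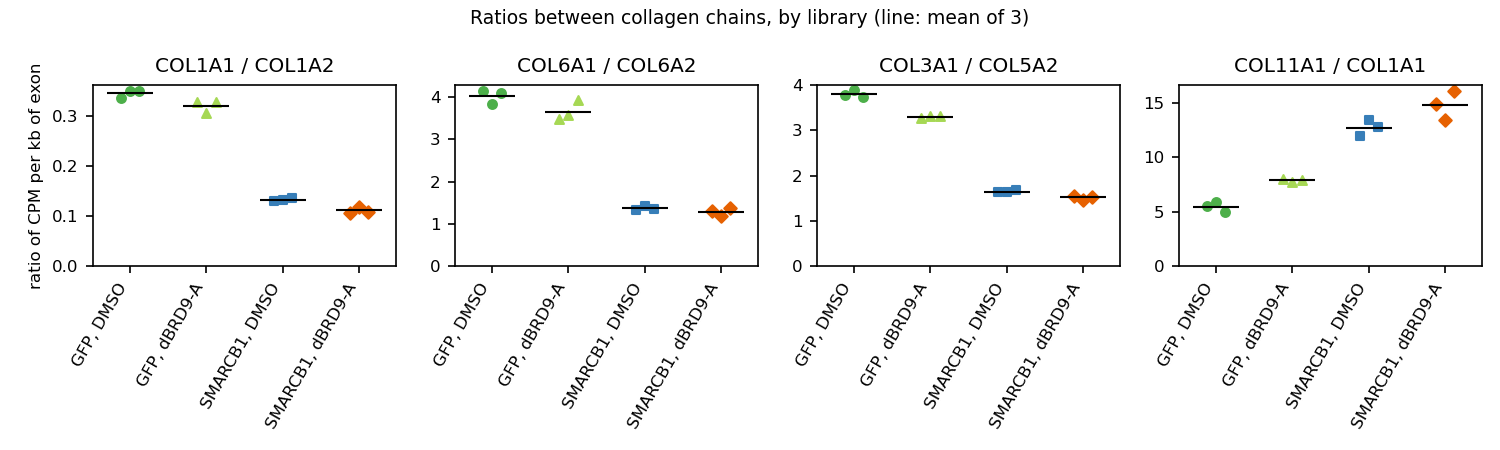
Ratio of CPM per kb of exon between collagen genes in each of the 12 libraries, with the mean of 3 as a line, for COL1A1 over COL1A2, COL6A1 over COL6A2, COL3A1 over COL5A2 and COL11A1 over COL1A1. GFP and SMARCB1 libraries are separate in each panel, which restates the unequal changes of the genes paired. The first ratio is 0.346 in GFP cells and 0.133 in SMARCB1 cells in DMSO.

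dBRD9-A changed fewer collagen genes and by less. In GFP cells the type I chains, COL18A1 and COL11A2 were lower in dBRD9-A than in DMSO and COL5A2 was higher. In this comparison 8 of the 22 tested collagen genes were called, 2 higher and 6 lower, where 15.9% of all tested genes were called, 7.43% higher and 8.47% lower. Under spike-in scaling, which moved the median gene by 0.36 on the log2 scale, 9 were higher and 2 lower. In SMARCB1 cells 4 of 22 were called, all lower, where 1.93% of all genes were called, 0.679% higher and 1.25% lower; spike-in scaling gave 9, all lower, with the median gene at -0.14. The median absolute log2 fold change over the tested collagen genes was 0.19 in GFP cells and 0.17 in SMARCB1 cells, against 0.09 and 0.06 over all tested genes. COL11A2 in GFP cells was the only one called with at least 2-fold, where 0.908% of all genes were; in SMARCB1 cells none was, against 0.146% of all genes. The comparison in GFP cells shares its DMSO libraries with the comparison of SMARCB1 and GFP cells in DMSO.

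In GFP cells the COL1A1 level of 171 to 182 CPM in dBRD9-A lay below every DMSO library, with a change of -0.53 (SE 0.04, adjusted p = 1.39e-07, edgeR), which was -0.17 and still called under spike-in scaling. COL1A2 fell by 0.42 on the log2 scale (SE 0.03, adjusted p = 2.15e-08), a value that shrank to -0.06 and lost its call under spike-in scaling. COL18A1 was 338, 317 and 343 CPM in dBRD9-A, below all DMSO libraries (log2 fold change -0.40, SE 0.08, adjusted p = 0.00227), and was also not called under spike-in scaling (-0.04). COL11A2 was 0.421, 0.500 and 0.537 CPM in dBRD9-A, with 56 counts over the group against 173 in DMSO, and changed by -1.18 (SE 0.26, adjusted p = 0.00413). COL5A2 rose by 0.32 (SE 0.03, adjusted p = 1.25e-07), all 3 dBRD9-A libraries being above all DMSO libraries. The changes of COL3A1 (0.11, adjusted p = 0.0117), COL9A1 (-0.19, adjusted p = 0.0354) and COL26A1 (-0.14, adjusted p = 0.0219) were small, and COL9A1 and COL26A1 turned to 0.17 and 0.22 under spike-in scaling. COL9A1 lost its call without any 1 of the 6 libraries compared, COL26A1 without any but the first dBRD9-A library, and COL3A1 without the third DMSO or the first dBRD9-A library. Without the third DMSO library 5 collagen genes were called in place of 8. None of the 3 basement membrane genes tested was called in GFP cells, and the change of COL4A5, at 37 counts in DMSO and 41 in dBRD9-A, was 0.56 (95% interval 0.05 to 1.07, adjusted p = 0.248), and 0.92 and called under spike-in scaling (adjusted p = 0.00959).

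In SMARCB1 cells all 4 called genes were fibrillar, and all were lower in dBRD9-A. Some genes of other classes had changes of similar size that were not called, such as COL9A1 at -0.28, COL18A1 at -0.23 and COL15A1 at 0.30. COL1A1 changed by -0.47 (SE 0.05, adjusted p = 1.29e-05, edgeR), with 63.7 to 74.3 CPM in dBRD9-A against 93.5 to 97.8 in DMSO. COL1A2 changed by -0.22 (SE 0.03, adjusted p = 4.14e-04), COL3A1 by -0.19 (SE 0.03, adjusted p = 6.23e-04) and COL11A1 by -0.26 (SE 0.05, adjusted p = 0.0056). For each of these genes the 3 dBRD9-A libraries lay below the 3 DMSO libraries. The second replicate of SMARCB1 cells in dBRD9-A stood apart from its group for several genes outside this set: COL18A1 was 279, 387 and 295 CPM, and COL6A1 was 35.1, 40.2 and 36.0 CPM. Without that library 7 collagen genes were called, COL6A1, COL18A1 and COL26A1 being added, all lower. COL4A5 and COL4A6, the genes raised most by SMARCB1, were not called, with log2 fold changes of -0.03 (95% interval -0.11 to 0.05) and -0.12 (-0.24 to 0.00).

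**Figure D4:**
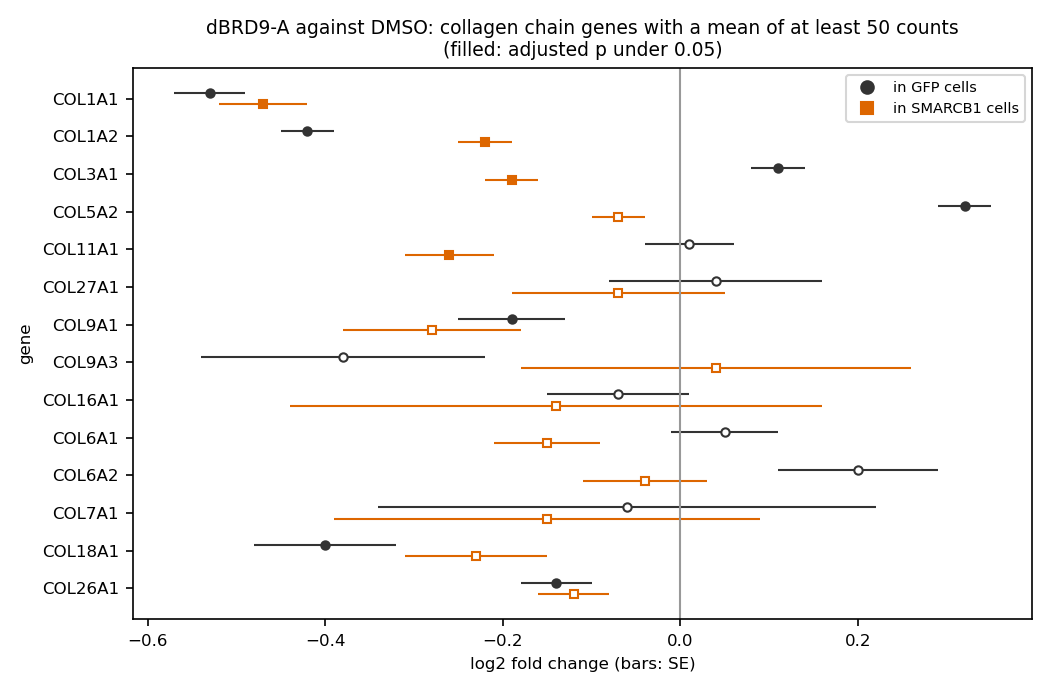
log2 fold change of dBRD9-A against DMSO, in GFP and in SMARCB1 cells, for 14 of the 16 collagen genes with a mean of at least 50 counts (COL4A5 and COL4A6, near 0 counts in GFP cells, are left out); bars are SE and filled symbols have an adjusted p under 0.05. COL1A1 is lower in both cell states (-0.53 and -0.47), while COL5A2 is higher in GFP cells (0.32) and is at -0.07 in SMARCB1 cells; spike-in scaling turns COL9A1 and COL26A1 in GFP cells to 0.17 and 0.22.

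The difference between the cell states was itself tested. The change with dBRD9-A differed between SMARCB1 and GFP cells for 4 of the 22 collagen genes, where 3.80% of all tested genes were called, 2.15% higher and 1.65% lower. None reached 2-fold, against 0.267% of all genes. All 4 were fibrillar, while COL4A5 at -0.59 and COL9A3 at 0.42 had larger differences that were not called. For COL5A2 the difference (SMARCB1 cells minus GFP cells) was -0.39 (SE 0.04, adjusted p = 4.86e-06, edgeR), since the rise of GFP cells was not found in SMARCB1 cells (-0.07, adjusted p = 0.208; under spike-in scaling -0.21, adjusted p = 0.0494). For COL3A1 it was -0.30 (SE 0.04, adjusted p = 1.44e-04), with 0.11 in GFP cells and -0.19 in SMARCB1 cells. For COL11A1 it was -0.26 (SE 0.07, adjusted p = 0.0328), with 0.01 and -0.26, a call that was lost without any 1 of 7 libraries (GFP replicates 1 or 3 in either treatment, SMARCB1 replicates 2 or 3 in DMSO, SMARCB1 replicate 1 in dBRD9-A; adjusted p from 0.0629 to 0.0965). For COL1A2 it was 0.20 (SE 0.04, adjusted p = 0.00897), with -0.42 and -0.22, and it became -0.29 under spike-in scaling, which moved the median gene by -0.49 and gave 12 collagen genes called, all lower. COL1A1, in contrast, showed a difference of 0.05 (95% interval -0.07 to 0.18, adjusted p = 0.744), which became -0.45 and was called under spike-in scaling. Without replicate 2 of SMARCB1 cells in dBRD9-A the count was 6, with COL6A1 and COL6A2 added.

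Collagen chains are hydroxylated, glycosylated, folded, trimmed and crosslinked by a dedicated set of enzymes, and most tested genes of this set rose with SMARCB1. Of 34 such genes 29 were tested, and in DMSO 18 were higher, 8 lower and 3 not called (89.7% called, against 65.0% of all genes), with a median log2 fold change of 0.31 against 0.00 over all tested genes. In dBRD9-A 19 were higher and 8 lower (93.1% called, against 63.3% of all genes, of which 33.0% were higher and 30.4% lower). The prolyl 4-hydroxylase subunit P4HA1, which makes the hydroxyproline that stabilises the triple helix, rose by 0.40 (SE 0.03, adjusted p = 6.14e-09, edgeR). SERPINH1, the collagen chaperone HSP47, was 363 CPM ± 6.27 in GFP cells and 480 ± 4.87 in SMARCB1 cells (SD, n = 3), also a rise of 0.40 (SE 0.03, adjusted p = 5.44e-09). In dBRD9-A both rises, 0.44 and 0.41, were 0.11 and 0.09 under spike-in scaling and no longer called. The largest rise was that of COLGALT2, a galactosyltransferase of hydroxylysine, from 6.39 CPM ± 0.117 to 30.2 ± 1.17 (log2 fold change 2.24, SE 0.05, adjusted p = 2.43e-16).

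Of the 8 falls in this set, PCOLCE, ADAMTS3 and TLL2 act in propeptide removal, LOXL1 in crosslinking, TMEM38B, MIA2 and MIA3 in folding and export, and CRTAP in prolyl 3-hydroxylation. In DMSO the log2 fold change of TMEM38B was -0.67. Those of MIA2, MIA3 and CRTAP were small, at -0.17, -0.13 and -0.14, where spike-in scaling shifted the median gene by 0.17. The values of these genes under spike-in scaling were not examined. PCOLCE, which enhances removal of the C-terminal propeptide of fibrillar chains, went from 68.6 CPM ± 3.91 in GFP cells to 17.6 ± 1.19 in SMARCB1 cells in DMSO (log2 fold change -1.96, SE 0.05, adjusted p = 6.53e-16, edgeR). ADAMTS3, which removes N-terminal propeptides, changed by -1.17 (SE 0.04, adjusted p = 1.21e-13), and LOXL1, a lysyl oxidase, by -1.27 (SE 0.08, adjusted p = 1.15e-10), from 22.3 CPM ± 0.156 to 9.24 ± 0.399. The proteinase BMP1, which cuts the C-terminal propeptide, rose by 0.90 (SE 0.05, adjusted p = 1.60e-11), so this step held changes in both directions. LOX, the founding lysyl oxidase, and PLOD2, the lysyl hydroxylase of telopeptides, were not tested, with at most 1 and 5 counts in any library.

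**Figure D5:**
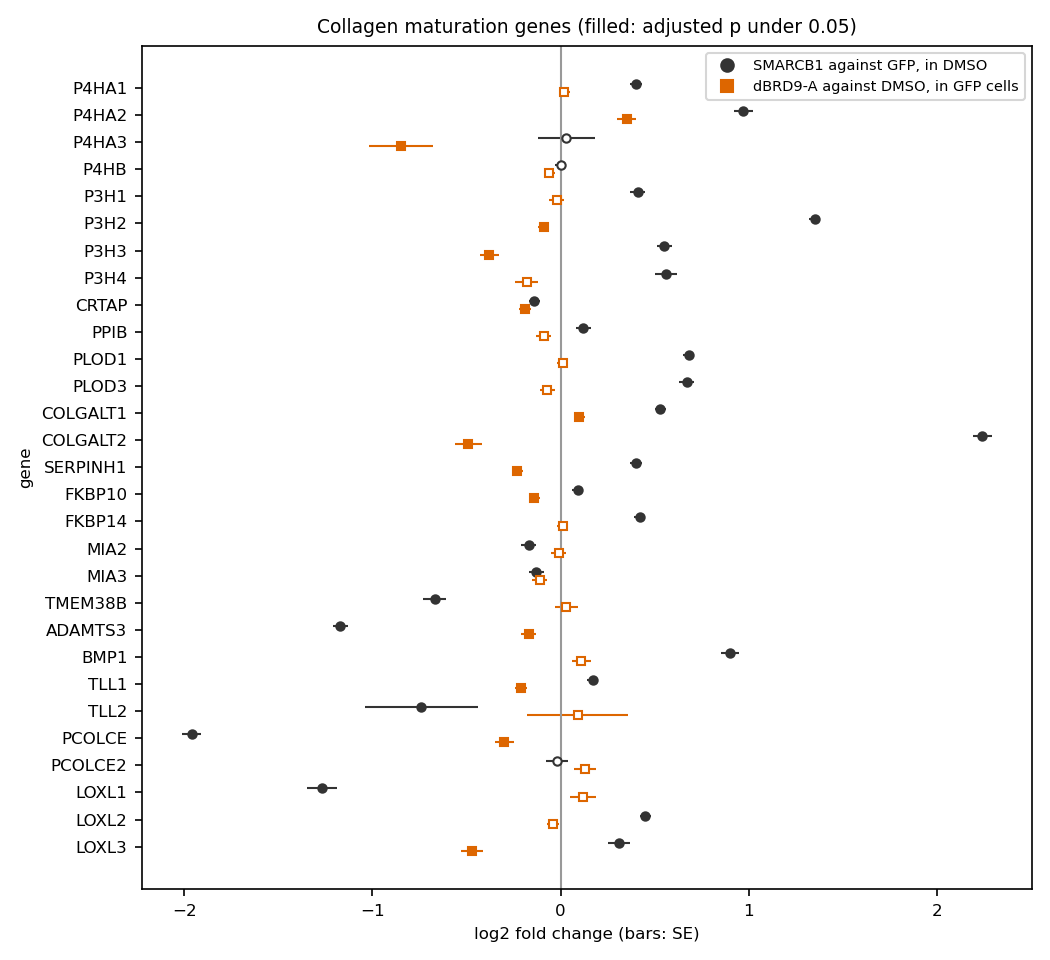
log2 fold change of the 29 tested collagen maturation genes for SMARCB1 against GFP cells in DMSO and for dBRD9-A against DMSO in GFP cells; bars are SE and filled symbols have an adjusted p under 0.05. COLGALT2 at 2.24 and PCOLCE at -1.96 mark the ends of the range for SMARCB1, and the changes with dBRD9-A lie between -0.85 and 0.35, with PCOLCE, SERPINH1 and ADAMTS3 turning to 0.06, 0.13 and 0.19 under spike-in scaling.

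With dBRD9-A, 13 of the 29 maturation genes were called in GFP cells, 2 higher and 11 lower, where 15.9% of all genes were called, 7.43% higher and 8.47% lower. In SMARCB1 cells 5 were called, all lower, where 1.93% of all genes were called. In GFP cells P4HA2, another prolyl 4-hydroxylase subunit, rose by 0.35 (SE 0.05, adjusted p = 1.24e-04, edgeR), and the largest falls were those of P4HA3 (-0.85, SE 0.17, adjusted p = 0.00237) and COLGALT2 (-0.49, SE 0.07, adjusted p = 1.18e-04), which was -0.13 and not called under spike-in scaling (adjusted p = 0.232). SERPINH1 changed by -0.23 in GFP cells, which turned to 0.13 under spike-in scaling, and by -0.22 in SMARCB1 cells (adjusted p = 7.43e-05 and 9.35e-04). LOXL3, a lysyl oxidase, had the largest fall in SMARCB1 cells (-0.43, SE 0.06, adjusted p = 3.63e-04). The difference between the cell states was called for 4 genes, 3 higher and 1 lower, where 3.80% of all genes were called. Among them were COLGALT2 (0.42, adjusted p = 0.00806) and ADAMTS3 (0.23, adjusted p = 0.0466), which were -0.07 and -0.26 under spike-in scaling, and P4HA2 (-0.28, adjusted p = 0.0306). The ADAMTS3 call was lost under 12 of 18 alternatives: relative log expression scaling, the replicate block (adjusted p = 0.0556) and leaving out any 1 library except replicate 2 of SMARCB1 cells in either treatment. The P4HA2 call was lost under 8 of 18: the replicate block (adjusted p = 0.0573) and leaving out GFP replicates 1 or 2 in DMSO or 2 or 3 in dBRD9-A, or SMARCB1 replicates 1 or 2 in DMSO or 3 in dBRD9-A.

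Of 17 genes for collagen receptors and collagen-degrading proteases 9 were tested, and 6 were called in SMARCB1 against GFP cells in DMSO, 3 higher and 3 lower, which is 66.7% of those tested and near the 65.0% of all genes. The interstitial collagenase MMP1 had 7 counts in GFP cells and 237 in SMARCB1 cells, a ratio of 38.7 with a 95% counting interval of 18.5 to 97.3. The collagenase MMP13 had no count in GFP cells and 73 in SMARCB1 cells, 27.8-fold higher against the floor of 3 counts. The lower 95% counting bound of its ratio was 22.0. Both remained below 2 CPM. They passed the count filter only through the SMARCB1 cells, so their rises, which are among the 3 counted, were set by that filter. MMP14, a membrane-bound collagenase, was far more abundant and went from 127 CPM ± 2.76 to 88.5 ± 2.33 (log2 fold change -0.52, SE 0.04, adjusted p = 1.63e-09, edgeR). With dBRD9-A, 4 of these genes were called in GFP cells, 1 higher and 3 lower, where 15.9% of all genes were called. The higher one was DDR1 (0.38, SE 0.09, adjusted p = 0.00498), a receptor kinase activated by collagen. In SMARCB1 cells 1 of the 9, MMP14, was called, at -0.25 (SE 0.04, adjusted p = 0.00136), where 1.93% of all genes were. In GFP cells it changed by -0.12 (adjusted p = 0.0356), which turned to 0.24 under spike-in scaling and lost its call without any 1 of the 6 libraries compared but the first in DMSO (adjusted p from 0.0557 to 0.145).

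The 22 collagen genes that did not pass the filter had at most 18 counts in any library. They were COL5A1, COL5A3 and COL24A1 among fibrillar genes, COL4A1, COL4A3 and COL4A4 among basement membrane genes, COL12A1, COL14A1, COL19A1, COL20A1, COL21A1 and COL22A1 among FACIT genes, and COL6A3, COL6A5, COL6A6, COL8A1, COL8A2, COL10A1, COL13A1, COL23A1, COL25A1 and COL28A1 among the others. Of these, 9 never exceeded 3 counts, and COL23A1 had no count in any library, which allows up to 0.0193 CPM over the 3 libraries of GFP cells in DMSO. COL13A1, a transmembrane chain, had no count in GFP cells and 36 in SMARCB1 cells in DMSO, at least 13.7-fold higher against the floor of 3 counts. COL12A1, a fibril-associated chain, had 4 and 29 counts, a ratio of 8.28 with a counting interval of 2.91 to 32.4. COL6A3 had 2 and 20, a ratio of 11.4 with an interval of 2.78 to 101, and 13 of the 20 came from 1 library. These intervals and floors cover counting error only. Not all untested genes rose in DMSO: COL8A2 had 12 and 6 counts, COL20A1 6 and 2, and COL5A1 13 and 15.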

How the data were processed

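RNA of G401 cells was prepared as 12 libraries with a kit for stranded mRNA libraries, per the labels' protocols. Reads were processed with STAR and RSEM 1.3.1 on GRCh37 (hg19), and DESeq2 was used by the authors, per the submitters' processing notes; the annotation and the strand setting are not given in the sources used here. The authors deposited RSEM expected counts in 3 tables, in which 6 repeated columns were identical and used once. Symbols came from a gene name table (51996 of 57820 identifiers matched), and exon lengths from GENCODE 29.

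Expected counts were rounded to whole numbers, 40 spike-in rows were set apart (0.963% to 1.302% of counts), and genes were filtered with filterByExpr (minimum count 10), which left 15750. edgeR 4.0.16 fitted 1 coefficient per group over all 12 libraries with TMM scaling and the quasi-likelihood test, and p-values were adjusted by Benjamini-Hochberg over all tested genes. CPM use the TMM library sizes. The steps were tested on simulated counts. Counting intervals are exact and conditional on the summed counts, and a count of 0 was given a floor of 3 counts over the group. The spread between replicates exceeded sampling noise in each group (chi-square per degree of freedom 2.96 to 25.7).

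Genes given in full were called with a log2 fold change past 1 in either direction and had a mean of at least 50 counts; of the related lists, the genes with the largest rises and falls per comparison were named, with P4HA1, PLOD2, SERPINH1 and LOX; BMP1, TLL2, TMEM38B, MIA2, MIA3 and CRTAP were chosen after their values were seen. The members and lists were chosen with earlier results of these data known, and the motifs other than TGACTCA were added after the data were seen. Alternatives were other scaling (relative log expression, spike-ins), DESeq2 1.42.0, other filters, a fold threshold, the compared groups alone, the replicate number as a block, and leaving out each library. PECAM1 was not analysed here.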

Additional observations from a re-analysis of the deposited data

Results flagged for a closer look

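The change with dBRD9-A differed between SMARCB1 and GFP cells, by the test of the difference itself, for 4 collagen genes, all fibrillar. Values are the log2 change in SMARCB1 cells minus that in GFP cells. The difference was -0.39 for COL5A2, which was higher in all 3 dBRD9-A libraries of GFP cells. It was -0.30 for COL3A1, which was called higher in GFP cells and lower in SMARCB1 cells. It was -0.26 for COL11A1, which was called in SMARCB1 cells and was at 0.01 in GFP cells, and the call of this difference was lost under 8 of 18 alternatives. It was 0.20 for COL1A2, which was lower with dBRD9-A in both cell states, and this value turned to -0.29 under spike-in scaling. Among all 15750 tested genes 3.80% were called in this test.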

How the results depend on the processing

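Of the calls, 16 of 19 for SMARCB1 against GFP in DMSO, 15 of 17 in dBRD9-A, 3 of 8 for dBRD9-A in GFP cells, 4 of 4 in SMARCB1 cells and 2 of 4 for the difference kept their direction and their side of the threshold under each alternative scaling, filter, test or set of libraries in which the gene had a value; the fold threshold is given apart. Of the genes not called, 0, 5, 6, 5 and 8 were called under at least 1 such alternative. With a change of at least 2-fold required, 1 collagen gene was called for dBRD9-A in GFP cells, 0 in SMARCB1 cells and 0 for the difference. Under spike-in scaling 9 were called in SMARCB1 cells and 12 for the difference. Spike-in scaling reversed these log2 values: COL1A2 to -0.18 and COL3A1 to -0.19 for SMARCB1 in dBRD9-A; COL9A1 to 0.17, COL26A1 to 0.22, PCOLCE to 0.06, SERPINH1 to 0.13, ADAMTS3 to 0.19 and MMP14 to 0.24 for dBRD9-A in GFP cells; and COL1A2 to -0.29, ADAMTS3 to -0.26 and COLGALT2 to -0.07 for the difference. The amount of spiked RNA per cell is not given in the sources used here, and the cause was not tested. Leaving out 1 library gave 18 to 21, 17 to 20, 5 to 9, 4 to 7 and 3 to 6 calls in the 5 comparisons in the order above, the counts of 7 and 6 without replicate 2 of SMARCB1 cells in dBRD9-A. Same-numbered libraries did not deviate together (18 pairs, correlations from -0.06 to 0.06), and 3 of 12 libraries correlated best with their own number, so the numbers were not taken as pairs. With the replicate number as a block, 19, 17, 7, 4 and 3 were called, COL9A1 in GFP cells (adjusted p = 0.0562) and the COL11A1 difference (0.0581) being lost. DESeq2 called 18, 17, 8, 4 and 4, and no filter on low counts 25, 22, 8, 6 and 5. Genes under about 20 counts per library, among them all type IV genes in GFP cells, are limited by counting error.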
